A study of Mus musculus with 2 samples.

Results

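A set of 9 receptor genes of the bladder's nerve and urothelial signalling was examined: the muscarinic acetylcholine receptors Chrm1, Chrm2 and Chrm3, the ATP-gated channels P2rx1, P2rx4 and P2rx7, the nucleotide receptor P2ry2, and the adrenergic receptors Adrb3 and Adra1a. They were chosen by name, and are 9 of 21938 protein-coding genes. The locus of each gene was its body with 20 kb on each side in the mouse build mm10. DNase-seq, which marks accessible chromatin by where the nuclease DNase I cuts, was done on urinary bladder of male B6CASTF1/J mice, the F1 cross of C57BL/6J and CAST/EiJ, aged 14 days. Both libraries belong to 1 group with no treatment named: biological replicate 1 came from a male, and biological replicate 2 from 3 pooled males, per the labels. The series therefore holds no comparison of conditions, and all values below describe this group, with the SD of the 2 libraries as the error. Whole tissue was used, so that an accessible site cannot be placed in a cell type, and fewer cells of a type and less cutting per cell cannot be told apart.

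Voiding of the bladder is driven by acetylcholine from parasympathetic nerves, which acts on muscarinic receptors of the detrusor muscle: Chrm3 couples to Gq and calcium release and starts contraction, while Chrm2, which couples to Gi, is known to be the more abundant subtype in this muscle. ATP released with acetylcholine opens P2rx1 channels on detrusor muscle, and ATP released by stretched urothelium acts on other P2X and P2Y receptors, of which P2ry2 couples to Gq. Noradrenaline relaxes the detrusor through Adrb3, which raises cyclic AMP, and contracts the bladder neck and urethra through Adra1a. DNase-seq does not measure the RNA or protein of any of these genes.

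Peaks of the replicates that overlapped by at least 1 bp were joined into regions, and a region with peaks of both is called shared. Open promoters are those with a shared region no farther than 1 kb from one of the gene's transcription start sites (TSSs). By this rule 7 of the 9 genes had an open promoter, beside 66.1% of all protein-coding genes. The promoter of P2rx1 held a peak in replicate 1 only, as did those of 4.13% of all genes (0.547% had one in replicate 2 only). Chrm1 had no promoter peak in either library, as was the case for 29.0% of all genes. A shared region lay over a TSS itself in 5 of the 9 genes, Chrm2, Chrm3, P2rx4, P2rx7 and P2ry2, beside 57.7% of all genes. These shares are a description of 9 chosen genes and do not set them apart from the rest.

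The sequences of the strongest shared regions that lay outside exons and outside the promoters of other genes are given first, since in several loci these exceeded the gene's own promoter in signal. Those of 7 genes are shown, and those of P2rx1 and Chrm2 are left out. Each is the plus strand of the reference (RefSeq GRCm38.p6, the build mm10), which carries the C57BL/6J allele. Capitals mark bases inside footprints, short protected stretches within an accessible region, that were called in both replicates.
P2rx7, upstream of the gene, chr5:122627341-122627520: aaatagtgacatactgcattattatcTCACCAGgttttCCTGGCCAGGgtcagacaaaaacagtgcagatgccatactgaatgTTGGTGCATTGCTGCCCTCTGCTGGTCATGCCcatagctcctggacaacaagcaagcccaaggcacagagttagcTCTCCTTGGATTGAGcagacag
P2ry2, downstream of the gene, chr7:100988161-100988360: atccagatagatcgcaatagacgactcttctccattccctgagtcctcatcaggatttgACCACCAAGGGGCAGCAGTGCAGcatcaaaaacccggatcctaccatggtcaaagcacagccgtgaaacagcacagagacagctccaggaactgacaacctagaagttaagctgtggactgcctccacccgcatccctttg
Adrb3, upstream of the gene, chr8:27253801-27253960: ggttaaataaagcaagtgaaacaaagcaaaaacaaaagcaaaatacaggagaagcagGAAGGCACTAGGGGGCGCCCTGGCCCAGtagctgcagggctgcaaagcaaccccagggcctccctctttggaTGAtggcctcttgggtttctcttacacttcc
Chrm3, intron, chr13:9882421-9882580: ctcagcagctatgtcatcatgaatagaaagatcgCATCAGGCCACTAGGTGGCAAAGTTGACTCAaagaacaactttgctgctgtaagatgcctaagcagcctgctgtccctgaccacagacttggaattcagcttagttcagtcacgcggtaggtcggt
Adra1a, intron, chr14:66672661-66672840: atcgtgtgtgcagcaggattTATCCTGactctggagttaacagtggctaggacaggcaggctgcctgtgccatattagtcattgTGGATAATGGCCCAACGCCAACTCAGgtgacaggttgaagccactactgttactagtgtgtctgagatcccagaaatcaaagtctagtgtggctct
P2rx4, intron, chr5:122726081-122726280: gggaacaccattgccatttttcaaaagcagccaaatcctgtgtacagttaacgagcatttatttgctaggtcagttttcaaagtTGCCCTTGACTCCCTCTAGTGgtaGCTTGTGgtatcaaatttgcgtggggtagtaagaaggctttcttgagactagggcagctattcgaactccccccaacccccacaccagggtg
Chrm1, upstream of the gene, chr19:8662424-8662615: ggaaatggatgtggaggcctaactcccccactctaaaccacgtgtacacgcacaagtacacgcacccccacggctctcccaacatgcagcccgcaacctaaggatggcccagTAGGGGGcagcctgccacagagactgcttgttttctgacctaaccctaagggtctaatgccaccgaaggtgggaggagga

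The promoters of P2ry2, P2rx7 and Chrm3 are shown beside that of P2rx1, because the first 3 were open in both replicates and the last held a peak in replicate 1 only. Only the bases outside exons are printed. Capitals again mark shared footprints, except in P2rx1, where they mark the footprints of replicate 1.
P2ry2, promoter, chr7:101012038-101012180: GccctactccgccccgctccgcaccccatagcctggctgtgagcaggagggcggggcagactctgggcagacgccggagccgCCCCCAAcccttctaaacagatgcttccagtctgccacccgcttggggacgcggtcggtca
P2rx7, promoter, chr5:122643801-122643910: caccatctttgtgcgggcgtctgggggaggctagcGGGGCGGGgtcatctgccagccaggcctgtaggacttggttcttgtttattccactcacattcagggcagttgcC
Chrm3, promoter, chr13:10360848-10361120: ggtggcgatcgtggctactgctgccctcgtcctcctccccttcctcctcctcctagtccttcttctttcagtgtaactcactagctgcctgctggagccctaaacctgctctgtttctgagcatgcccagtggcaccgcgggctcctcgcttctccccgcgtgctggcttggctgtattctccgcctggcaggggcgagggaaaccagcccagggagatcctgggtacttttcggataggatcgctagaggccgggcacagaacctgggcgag
P2rx1, promoter peak of replicate 1, chr11:72998920-72999040: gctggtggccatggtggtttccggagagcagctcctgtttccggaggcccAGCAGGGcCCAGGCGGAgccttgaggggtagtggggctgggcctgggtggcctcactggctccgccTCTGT

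The deposited lists held 139821 peaks in replicate 1 and 82225 in replicate 2, which formed 144484 regions, 50.6% of them shared. Signals were whole multiples of 1 step per library, and the median peak of replicate 1 had 132 steps, that of replicate 2 111. Taken as cuts, which is an assumption, the steps give the Poisson 95% intervals quoted below, which cover counting error only. The larger step of replicate 2 (1.54 times that of replicate 1) would then go with a shallower library. Promoters were open for 10 of 12 urothelial, 10 of 10 smooth muscle and 7 of 7 fibroblast marker genes, and for 0 of 5 hepatocyte genes. By the same rule 66.1% of all protein-coding genes were open. Of the other markers that the tissue could hold, 5 of 8 neuronal and glial, 2 of 6 endothelial, 2 of 8 macrophage, 3 of 9 adipocyte and 3 of 7 striated muscle genes were open. The part that any one cell type has in the values below was not tested.

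**Figure D1:**
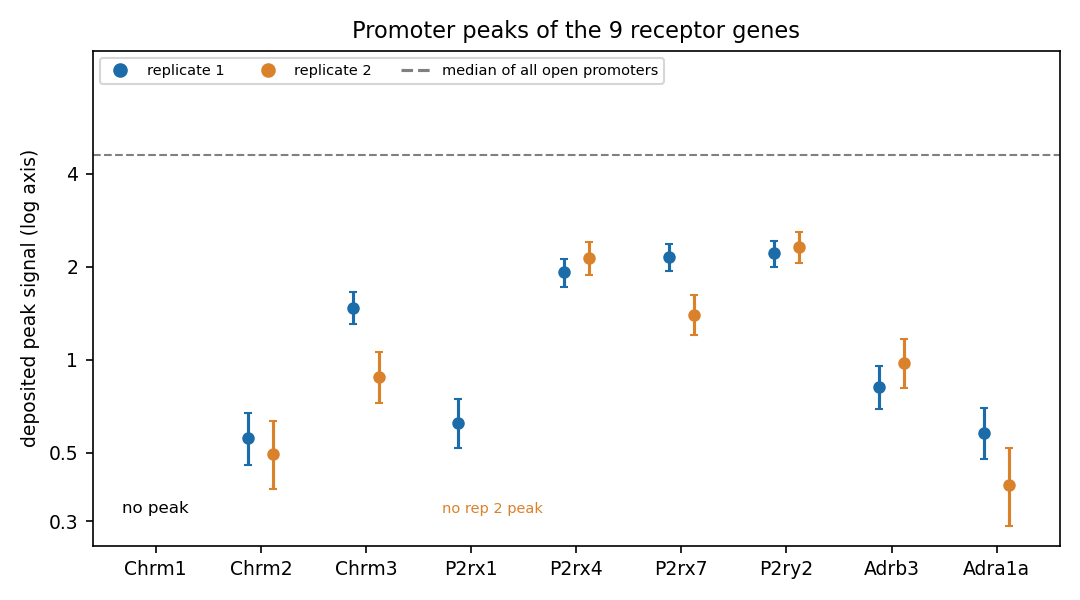
Deposited signal in replicate 1 and replicate 2 of each receptor gene's shared promoter region with the highest mean, on a log axis. For P2rx1 the promoter peak of replicate 1 is drawn, and Chrm1 had no promoter peak. Bars are Poisson 95% intervals if 1 signal step is 1 cut, and the dashed line is the median over all open promoters, 4.61; the 7 open promoters all lie below it.

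Among the muscarinic genes, Chrm3 had the strongest promoter. The Chrm3 gene occupies chr13:9875486-10360847 on the minus strand, and the region at its TSS, chr13:10360801-10361120, had a signal of 1.47 in replicate 1 and 0.879 in replicate 2 (mean 1.18 ± 0.420, SD, n = 2). The intervals of the libraries, 1.31 to 1.66 and 0.723 to 1.06, did not overlap on the deposited scale. The second region over a Chrm3 start site reached 0.672 and 0.432, so that the bases printed above belong to the stronger of the pair. No footprint of the stronger region was called in both replicates, although replicate 1 had 5 there and replicate 2 had 1.

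Chrm3 is also the longest of the 9 genes, and its 485362 bp body is mostly intron. Its locus held 17 regions, of which 7 were shared and 10 were in replicate 1 only, or 1.33 shared regions per 100 kb, the lowest density of the 9 loci (20.6% of genes had a lower one). All 10 regions of replicate 1 only lay in Chrm3 introns. The strongest shared region of the locus was intronic as well, chr13:9882421-9882580 near the 3' end of the gene, with 2.52 in replicate 1 and 1.26 in replicate 2. It thus exceeded the promoter in both libraries. Its single shared footprint, printed in capitals above, covered both an AP-1 match and a CTCF match. AP-1 is the Fos and Jun family of factors, and CTCF is the zinc finger protein known for insulators and chromatin loops.

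Chrm2 had shared but faint regions. The gene lies at chr6:36388084-36528414 on the plus strand, and its strongest promoter region, chr6:36388542-36388820 in the 5' UTR, gave 0.557 in replicate 1 and 0.496 in replicate 2 (mean 0.526 ± 0.0435, SD, n = 2). Of all open promoters 3.03% had a lower mean. Unlike any other of the 9 genes, it had 4 shared regions within 1 kb of its start sites. They stood next to one another from the first TSS into the first intron, at 0.240 and 0.336, 0.557 and 0.496, 0.245 and 0.272, and 0.385 and 0.456 in replicates 1 and 2. In this row the replicates were each the higher one at least once, and no region reached the strength of the Chrm3 promoter. The only other shared region was intronic, chr6:36405161-36405291, at 0.349 and 0.296. The remaining 4 regions of the locus, out of 9, were in replicate 1 only, at 0.245 to 0.302.

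At Chrm1, the receptor better known from neurons, the pattern was the reverse, with accessible sites around the gene and none at its start. The gene lies at chr19:8663789-8683587 on the plus strand. The nearest shared region was 1174 bp upstream of the first TSS, just outside the 1 kb window, and had 1.27 in replicate 1 and 0.752 in replicate 2. Inside the gene, both shared regions lay in the 3' UTR. The stronger one, chr19:8683141-8683300, had 2.86 and 1.66, the highest signals of the 3 muscarinic loci in each library. The weaker one, chr19:8679481-8679680, had 1.49 and 0.935. The remaining shared region, downstream of the gene at chr19:8695481-8695660, had 0.984 and 0.799. Except for the weaker 3' UTR site, each of the 4 shared regions of this locus held the CTCF consensus, and each match was centred in a footprint called in both replicates. In the upstream region the capitals printed above cover only part of the match.

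**Figure D2:**
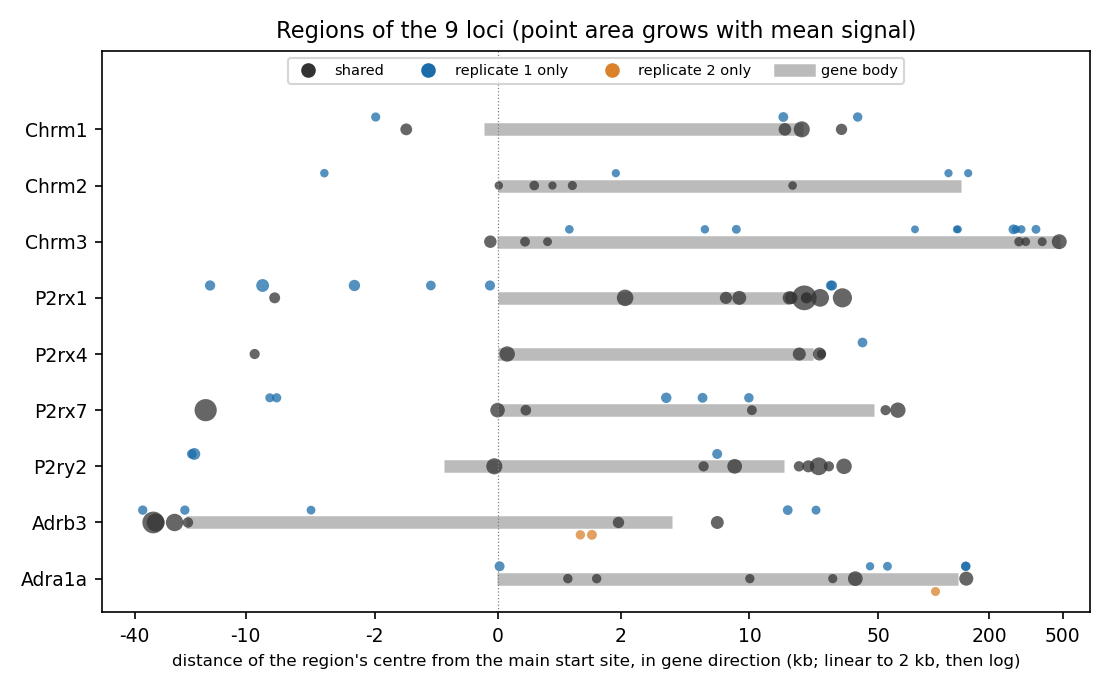
Accessible regions of each receptor locus by the distance of their centre from the main start site, in the direction of the gene (kb, linear to 2 kb and logarithmic beyond). Grey bars are gene bodies and point area grows with mean signal; Chrm1 has no point near 0, and Chrm3 has its strongest point at the far end of the gene.

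Of the purinergic genes, P2ry2 and P2rx4 had the strongest promoters and P2rx1 the weakest evidence for one. P2ry2, the UTP and ATP receptor, lies at chr7:100996568-101012866 on the minus strand. Its promoter region, chr7:101011921-101012180, had 2.21 in replicate 1 and 2.31 in replicate 2 (mean 2.26 ± 0.0727, SD, n = 2), the highest of the 9 genes, yet 26.3% of open promoters had a lower mean. It held 3 shared footprints, of which 2 held the centre of a match to GGGCGG, the core recognised by SP and KLF factors. A second region within 1 kb of an internal start site of P2ry2, chr7:101003581-101003780, reached 1.84 and 1.80. With 8 shared regions of 11, or 14.2 per 100 kb, the locus was the second densest. Downstream of the gene, 5 shared regions followed one another towards P2ry6, a UDP receptor. The strongest of them, chr7:100988161-100988360, had 3.11 and 2.59 and so exceeded the promoter in both libraries.

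P2rx4 and P2rx7 are neighbours on chromosome 5, where their loci overlap and count the same 2 shared regions. P2rx4, a channel with high affinity for ATP, lies at chr5:122707544-122729738 on the plus strand. Its promoter region, chr5:122707421-122707980, had 1.92 in replicate 1 and 2.13 in replicate 2 (mean 2.02 ± 0.149, SD, n = 2) and was the widest region of the locus, with 4 shared footprints. Of its 6 regions 5 were shared. The intronic region chr5:122726081-122726280 had 1.96 in replicate 1 and 0.688 in replicate 2, with intervals of 1.77 to 2.17 and 0.550 to 0.849. After each library was divided by its median signal over all shared regions, this was a log2 ratio of 1.12, the highest of the 56 shared regions of the 9 loci. The same locus held the lowest, a log2 ratio of -0.92 at chr5:122732113-122732170 inside the neighbouring gene Camkk2, where the signals were 0.349 and 0.504.

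P2rx7, the channel known for inflammasome activation, lies at chr5:122643911-122691432 on the plus strand. Its promoter region, chr5:122643801-122644020, had 2.15 in replicate 1 and 1.40 in replicate 2 (mean 1.77 ± 0.528, SD, n = 2). Both shared footprints of this region held the centre of a GGGCGG match, and one of the matches lies in the capitals printed above. A second region in the first intron had 0.791 and 0.696. The strongest site of the locus lay 16391 bp upstream, chr5:122627341-122627520, with 5.67 in replicate 1 and 3.76 in replicate 2 (mean 4.71 ± 1.35, SD, n = 2). That is a higher signal in each library than at any of the 9 promoters. All 3 of its joined footprints were shared, and the central one covered a CTCF match.

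P2rx1, the channel of detrusor muscle, lies at chr11:72999103-73015200 on the plus strand and was the 1 gene of the 9 with a promoter peak in a single library. The peak, chr11:72998920-72999040, ended 63 bp upstream of the TSS and had a signal of 0.625 in replicate 1 (interval 0.518 to 0.747, from 120 steps). The lowest FDR that the authors' track lists for it in replicate 1 was 2.15e-03, and in replicate 2 no base of it was listed at 0.05 or lower. The weakest peak that was called anywhere in the locus in replicate 2 had 0.688. Of the other regions of replicate 1 only in this locus, chr11:72990861-72991160 had 1.28 and chr11:72996423-72996637 had 0.896, both above that value on the deposited scale. Replicate 1 ran higher on that scale, with a median of 1.28 over all shared regions, beside 0.975 in replicate 2. In the first of these regions replicate 2 listed 13 bases at an FDR of 0.05 or lower, and in the second none. The part of depth in this was not tested.

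The surroundings of P2rx1 were nonetheless the densest of the 9 loci, with 11 shared regions among 18, or 19.6 per 100 kb, and 96.5% of genes had a lower density. The locus reaches into the neighbours Atp2a3 and Camkk1, and 3 of the 11 lay at Camkk1 promoters, among them the strongest of the locus, chr11:73018821-73019040, at 6.31 and 5.60. Within P2rx1 itself there were 3 shared regions, all intronic. Among them, chr11:73006461-73006660 had 1.00 in replicate 1 and 1.19 in replicate 2, and chr11:73007821-73008000 had 1.96 and 1.24. Both thus had higher signals in each library than the promoter peak of replicate 1.

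**Figure D3:**
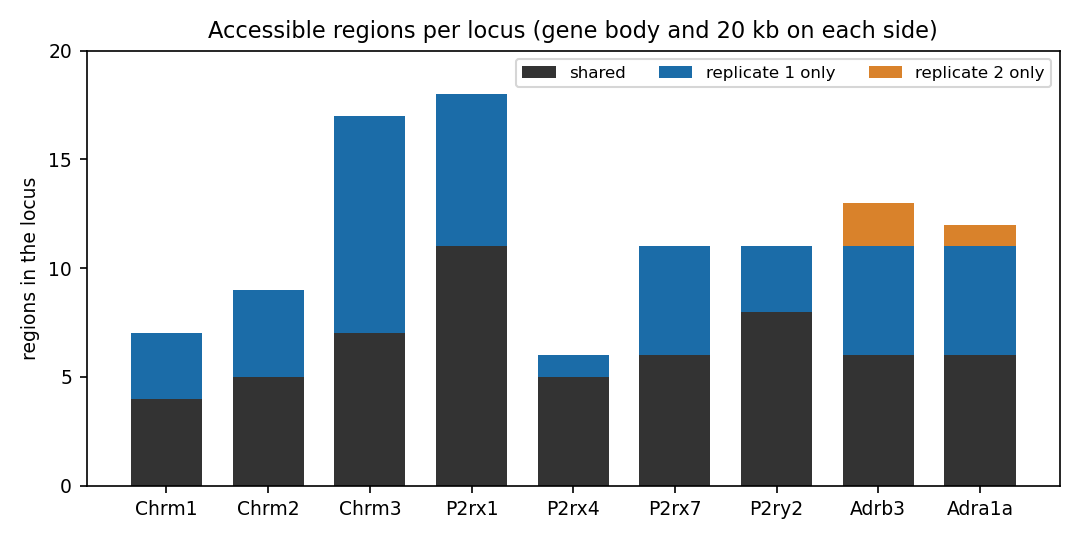
Number of accessible regions in the locus of each receptor gene, split into shared regions, regions of replicate 1 only and regions of replicate 2 only. The P2rx1 locus holds the most shared regions, 11, and only the Adrb3 and Adra1a loci hold regions of replicate 2 only.

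The adrenergic genes had weak promoters. Adrb3, the receptor of detrusor relaxation, lies at chr8:27225776-27250616 on the minus strand. Its strongest promoter region, chr8:27227461-27227780, was not at a TSS but 714 bp from the nearest one, in a coding exon, with 0.817 in replicate 1 and 0.975 in replicate 2 (mean 0.896 ± 0.112, SD, n = 2). Beside it, 2 more peaks in coding sequence were called in replicate 2 only, at 0.576 and 0.472, and replicate 1 listed no base of them at an FDR of 0.05 or lower. Of the 3 regions of replicate 2 only in all loci, these were 2. A second shared promoter region lay in an intron close to the upstream start sites, chr8:27250041-27250260, at 0.812 and 0.560.

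Upstream of Adrb3, the region chr8:27253801-27253960 was stronger than its promoter regions, with 3.29 in replicate 1 and 2.17 in replicate 2. The strongest 2 of the locus by mean signal, chr8:27261101-27261460 at 4.98 and 4.05 and chr8:27260221-27260440 at 3.19 and 2.74, lay at the promoter of Eif4ebp1, a translation inhibitor gene. With the site near the Got1l1 start, 3 of the 6 shared regions of this locus belonged to promoters of other genes.

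Adra1a lies at chr14:66635251-66771168 on the plus strand and had the weakest open promoter of the 9 genes. Its region, chr14:66636281-66636520, was in the first intron, with 0.578 in replicate 1 and 0.392 in replicate 2 (mean 0.485 ± 0.132, SD, n = 2). Of all open promoters 2.28% had a lower mean. This region lay 725 bp downstream of the nearest start site, which is not the main one, and its centre was 1143 bp from the main TSS. The call as open thus rests on another start site. The main TSS, chr14:66635258, was covered by a peak in replicate 1 only, chr14:66635201-66635380, at 0.583 (interval 0.480 to 0.702). There replicate 2 listed 37 bases at an FDR of 0.05 or lower, with 3.84e-02 as the lowest, and no peak. The strongest regions of the Adra1a locus were again away from the start: chr14:66672661-66672840 in an intron had 2.49 and 1.15, and chr14:66785021-66785200 downstream had 1.84 and 1.39.

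Ordered by mean promoter signal, the open genes ran P2ry2, P2rx4, P2rx7, Chrm3, Adrb3, Chrm2, Adra1a. Compared within each library, P2ry2 was above P2rx4, P2rx7 above Chrm3, and Adrb3 above Chrm2 in both. The order of P2rx4 and P2rx7, of Chrm3 and Adrb3, and of Chrm2 and Adra1a differed between the libraries. The Poisson intervals of P2ry2 and P2rx4 overlapped in both libraries. Those of P2rx7 and Chrm3, and of Adrb3 and Chrm2, overlapped in neither. The sources used here do not say whether the deposited signal depends on the length of a peak. The median of the 7 open promoters was 1.18, beside 4.61 over all open promoters.

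The base composition of the promoters differed as well. The ratio of observed to expected CpG in the 500 bp around the main start site was under 0.4 in Chrm1 (0.194), P2rx1 (0.236) and Adrb3 (0.316), and between 0.412 and 0.827 in the other genes. Of the 3 genes under 0.4, Adrb3 alone was open, beside 24.4% of the 8210 genes with such a ratio. Adrb3 was open at other start sites than the main one, where the ratio was taken. Its 2 shared promoter regions were centred at 1967 and -20563 bp from the main start site, in gene direction. The gene without a promoter peak and the gene with one in a single library were thus both among the 3.

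Over the 9 loci, with each region counted once, 102 regions were found, of which 56 were shared, 43 were in replicate 1 only and 3 in replicate 2 only. All 9 loci held at least 1 shared region, beside 83.0% of all genes. The shared portion was 54.9% (Wilson 95% interval 45.2 to 64.2), which takes in the 50.6% of all regions. The median locus held 6 shared regions, beside 4 over all genes, and 6.86 per 100 kb beside 4.96. Regions of replicate 1 only were weak, with a median signal of 0.458, beside 1.13 in replicate 1 for the shared ones. Over the genome the same medians were 0.44 and 1.28. In replicate 2 only 3 of the 43 regions of replicate 1 only had any base listed at an FDR of 0.05 or lower. All peaks of replicate 2 in the loci held such bases, so few are left for regions without one. The same count over all regions is not given here.

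**Figure D4:**
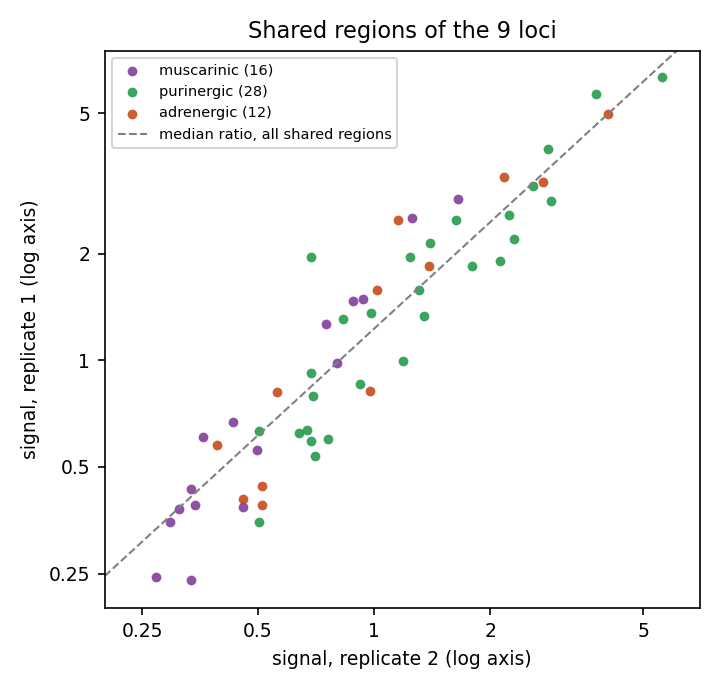
Signal of the 56 shared regions of the receptor loci in replicate 2 and replicate 1, on log axes, coloured by receptor family; a region in both the P2rx4 and P2rx7 loci is drawn once. The dashed line is the median ratio of all shared regions, and the point farthest above it is the P2rx4 intron at 0.688 and 1.96.

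Between the replicates, the scaled log2 ratio of the 56 shared regions had a median of -0.13 and an SD of 0.43, beside -0.10 and 0.42 over all shared regions. The ratio ran from -0.92 to 1.12, both in the P2rx4 locus. The loci thus varied between the libraries about as much as shared regions in general.

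The deposited FDR track gave a similar order of the loci. At an FDR of 0.05 or lower, the P2rx1 locus had 8.87% of its bases in replicate 1 and 4.22% in replicate 2, P2ry2 had 5.73% and 3.95%, and Adrb3 had 5.25% and 4.64%. At the other end, Chrm3 had 0.708% and 0.327%, Chrm2 had 0.850% and 0.593%, and Adra1a had 1.19% and 0.755%. These 3 have the longest gene bodies of the 9. The median over all genes was 2.89% in replicate 1 and 2.03% in replicate 2, close to the medians of the 9 loci, 2.96% and 2.39%.

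**Figure D5:**
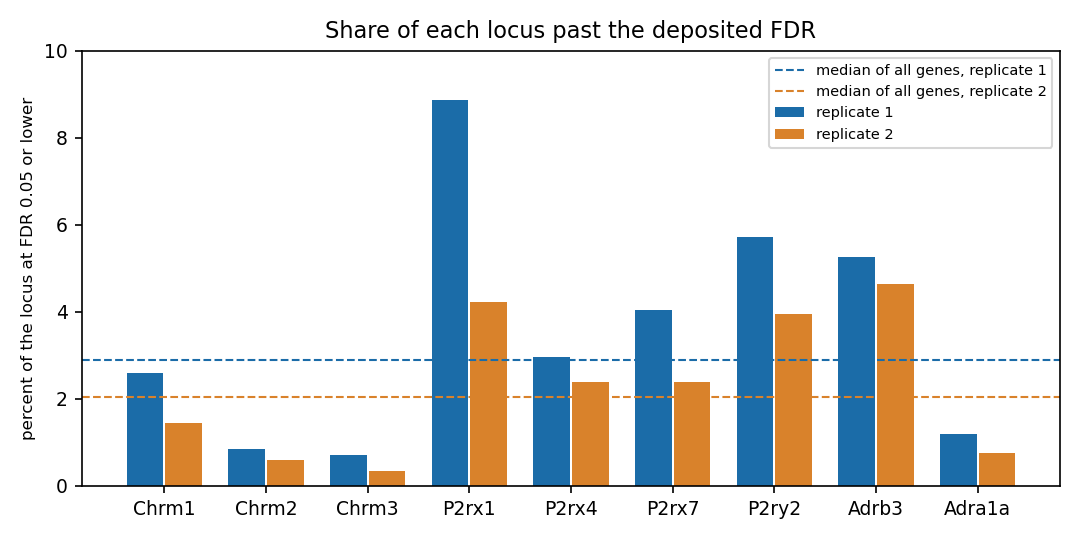
Percent of the bases of each receptor locus listed at an FDR of 0.05 or lower in replicate 1 and replicate 2, with the medians over all protein-coding genes as dashed lines. In each library P2rx1, P2rx4, P2rx7, P2ry2 and Adrb3 lie above the median, and Chrm1, Chrm2, Chrm3 and Adra1a lie below it.

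Footprints of the 9 loci formed 66 stretches in which both replicates had one. At least 1 was held by 37 of the 56 shared regions, and the same share over all shared regions is not given here. The 66 stretches were 56.4% of the 117 stretches with a footprint of replicate 2, beside 61.1% over the genome. They were 28.3% of the 233 with one of replicate 1, beside 35.0%. P2rx1 had 17 shared footprints, P2rx7 had 11 and Adrb3 had 10, while Chrm2 and Chrm3 had 3 each.

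Consensus motifs were searched on both strands in the central 200 bp of the shared regions. The CTCF consensus was found in 7 of the 56 regions (12.5%), beside 6.41% of all shared regions: 3 of them at Chrm1 and 1 each at Chrm3, P2rx1, P2rx7 and Adra1a. All 7 matches were centred in a footprint of both replicates, as were those in 91.0% of the shared regions with this consensus. Among the regions over 1 kb from any coding start site, the strongest of each locus held the consensus at Chrm1, Chrm3 and P2rx7, which is 3 of 9, beside 17.6% of 14898 loci. With at most 1 mismatch, a limit chosen after seeing the data, P2rx4, P2ry2 and Adrb3 joined them (6 of 9, beside 43.3%). At P2rx4 that region lies in the neighbour Camkk2, chr5:122731401-122731600, at 1.34 and 1.35. The printed sequences of P2ry2, Adrb3 and the P2rx4 intron hold such a near match too, and it overlaps their capitals. Binding of CTCF was not measured, and a match is a description of the letters.

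Of the other motifs, the E-box CAGCTG was in 28.6% of the 56 regions beside 18.3% of all, and GGGCGG in 26.8% beside 25.1%. The TEAD motif GGAATG was in 16.1% beside 12.3%, with 4 of its 9 regions in the P2ry2 locus. The AP-1 motif TGANTCA was in 2 regions (3.57%, beside 11.5%), the Chrm3 intron and a site downstream of P2ry2. The NFI motif TTGGCA was in 12.5% beside 14.9%. The CArG box, the element bound by serum response factor at smooth muscle genes, was in 1 region (1.79%, beside 0.882% of all shared regions). That region was a Chrm3 intron site at 0.432 and 0.336. The MEF2 motif was also in 1 region (1.79%, beside 0.238%), another Chrm3 intron site. No ETS motif CCGGAAG and no glucocorticoid receptor motif was in these windows, beside 4.64% and 0.615% of all shared regions. No searched motif with letters printed here contains another one.

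Of 20 other receptors whose gene symbols place them in the same families, 14 (70%) had an open promoter, beside 66.1% of all protein-coding genes. Among these, P2rx3, a channel of sensory nerves, had 5.53 in replicate 1 and 4.92 in replicate 2 (mean 5.22 ± 0.433, SD, n = 2), above every one of the 9 genes in both libraries. P2ry1, an ADP receptor, had 4.90 and 3.56. Adra2b, Adra1b, Chrm4 and Adrb1 had means of 3.33, 2.99, 2.23 and 1.86. The open promoters of P2rx6, P2rx2, Adra1d, Adra2a, P2rx5, Adra2c and P2ry14 had means from 0.466 (P2ry14) to 1.36 (P2rx6). Chrm5 had a peak in replicate 1 only, and P2ry6 had peaks of each replicate that did not overlap. The promoters of P2ry4, P2ry10, P2ry12 and P2ry13 had none, and the last 3 are receptors known from blood and immune cells. With the 9 genes, 21 of 29 receptors were open, beside the same 66.1% of all genes.

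The genes downstream of the receptors were open throughout: all 35 G proteins, effectors and regulators had an open promoter, beside 66.1% of all protein-coding genes. The highest were Gna11, a Gq family subunit that Chrm3 couples to, at 15.7 ± 1.89, Rock1, a kinase of calcium sensitisation, at 11.9, Arrb2, an arrestin, at 11.7, and Itpr1, the calcium release channel, at 10.9 (means of 2 libraries). Of 22 genes for making, releasing and breaking down the ligands, 16 (72.7%) were open, near the share of all genes. Entpd1, which breaks down ATP, was highest at 8.80 ± 0.624 (SD, n = 2). Ache, which breaks down acetylcholine, had 4.51, and Alpl, a phosphatase, had 2.75. Chat and Slc18a3, which make and load acetylcholine in cholinergic neurons, and Entpd8 had no promoter peak. Slc5a7, the choline transporter, had one in replicate 2 only, and Th, the first enzyme of noradrenaline synthesis, one in replicate 1 only. The nerve cell bodies that use these genes lie partly outside the bladder, and the share of nerve cells in the tissue was not measured.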

How the data were processed

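DNase-seq of 2 bladder libraries in 1 group was analysed. Per the notes deposited with each sample, every file came from 1 library without pooling and used mm10. No aligner, peak caller or footprint caller is named in the sources used here. The authors' peak lists give a signal per peak, whose normalization is not stated there either. It was a whole multiple of 1 step per library (0.00521 and 0.00799, within 0.01 steps). The authors' FDR track, a p-value of the q-value type per stretch of positions, lists values under 0.05. The p-value deposited with footprints was 0.01 throughout, so they were used as positions.

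The looser peak list was the main one. Ratios between replicates used signals divided by each library's median over all shared regions. Annotation was GENCODE M21 and sequence RefSeq GRCm38.p6. No test was run, since 1 group of 2 libraries allows none, and members are given beside all genes or regions. Whether the libraries came from separate litters is not stated. The 9 members, gene lists and motifs were chosen with earlier results of these data known. Named were all 9 members, the other receptors of the families and, of further lists, at most 4 genes with the highest promoter signal and at most 4 without a peak; receptors without an open promoter, Slc5a7 and Th were named after their values were seen. Some items that this rule names are not reported here. Joins, promoter calls and motif matches were tested on simulated data. Tools were Python 3.11.15, numpy 2.4.6, pandas 2.3.3, scipy 1.17.1, matplotlib 3.10.9, pysam 0.24.0 and samtools 1.23.1. Alternatives were other peak lists, overlaps, windows, flanks, scalings and each replicate alone.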

Additional observations from a re-analysis of the deposited data

How the results depend on the processing

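Open promoters numbered 7 in the main analysis, 4 with the stronger 50% of peaks, and 6 to 9 under the other alternatives. With the stronger peaks, Chrm2, Chrm3 and Adra1a were no longer open. Adra1a also lost its call with the stricter lists, a 500 bp window and a 50% overlap, and Chrm2 with equal numbers of peaks. Chrm1 and P2rx1 became open with a window of 2500 bp. With each replicate alone, 7 (replicate 2) and 8 (replicate 1) promoters held a peak, P2rx1 being the gene that differed. Genes with a promoter peak in 1 replicate only numbered 1 in the main analysis, 2 with equal numbers of peaks (P2rx1 and Chrm2), 2 with a 500 bp window (P2rx1 and Adra1a) and 0 with 2500 bp. In the count of 1 under the stricter lists the gene was Adra1a, and under the stronger 50% it was Chrm3, with P2rx1 at no peak in both.

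Shared regions numbered 56, 26 in the stricter lists, 27 with the stronger 50%, 32 in gene bodies alone and 93 with a 50 kb flank, and each replicate alone gave 59 to 99 regions. The shared portion was 71.1% with the stronger 50%, and 46.1% to 63.2% otherwise. The median log2 ratio was 0.27 on the deposited scale, and 0.02 with the stricter lists, beside -0.13. Shared footprints numbered 66, 42 at a 50% overlap, 28 in gene bodies and 131 with 50 kb, and a single replicate gave 124 to 235. Bases at the FDR threshold in both replicates numbered 13795, 7027 at an FDR of 0.001 or lower, 6631 in gene bodies and 25487 with 50 kb, and a single replicate gave 15079 to 24746. In 100 bp windows the TEAD motif was in 7.14% of regions, beside 6.63% of all shared regions, and the E-box in 14.3%, beside 10.5%. GATA, CArG and MEF2 were in 0%, beside 2.70%, 0.402% and 0.0984%. Of 81 alternatives for the shared regions of a single locus, 45 stayed within 1.5 times.

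No paired analysis was possible because the series has 1 group. The limits are the 2 libraries, the lower number of peaks in replicate 2, whole tissue, and an assay that does not show which gene a distal region acts on. Reads of the CAST/EiJ allele were not separated here.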
